A study of Spirodela polyrhiza with 13 samples.

Results

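Among 19623 gene IDs of the greater duckweed Spirodela polyrhiza, 176 were already higher at stage 3 of frond development than at stage 2 and were no lower at stage 6 than at stage 3. They were chosen by their FPKM values, which are fragment numbers scaled to gene length and to the total of a library. A gene entered if its mean at stage 3 was at least 5 FPKM, if the log2 of its mean FPKM plus 1 was higher by at least 1 at stage 3 than at stage 2, and if every stage 3 library lay above every stage 2 library. Stage 6 also had to reach at least the stage 3 level, and the step from stage 4 to stage 5 had to lie above -0.8 and below 2 on the same log2 scale. The rule therefore used the values of all 13 libraries, and the difference between stages 2 and 3 of these genes is a description and not a finding.

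The libraries came from frond tissue of wild-type plants, 3 each at stages 2, 3 and 4 and 2 each at stages 5 and 6, all grown in SH medium with days of 16 h and nights of 8 h. The labels define the stages only by number. They leave unsaid whether same-stage libraries were made from different plants or cultures, and the p-values below measure library spread that may be only technical. The libraries held between 7708200 and 10910370 reads on genes, as read from the FPKM values. In bulk tissue, more cells of a type and more RNA per cell cannot be told apart.

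The frond is the reduced, leaf-like body of a duckweed, and daughter fronds grow from pouches at its base. As a frond matures, its tissue opens gas-filled spaces, the aerenchyma, which give buoyancy and carry gas through the plant. The series was concerned with plant hormones and the pattern of that tissue. The table gives gene IDs and pairs none with a name or product, so the members are described by ID and level. What they encode is not described, and the hormone, cell wall, cell death and cell type lists fixed by product name could not be applied.

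The rule was narrow at its first step. Of 12948 genes with at least 5 FPKM at stage 3, 242 met the minimum rise of 1 on the log2 scale, and 214 of these also had no overlap between the libraries of stages 2 and 3. At stage 6, 199 of the 214 were at or above their stage 3 level and 15 were below it. The bounds on the step from stage 4 to stage 5 then removed 16 genes for too large a drop and 7 for too large a rise, which left 176. No upper limit on the number of genes came into play. All 176 passed the filter of the test described below, at least 1 FPKM in at least 2 libraries.

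The members spanned a wide range of levels. Median FPKM over the 176 was 5.92 at stage 2, 19.4 at stage 3, 33.4 at stage 4, 38.7 at stage 5 and 64.5 at stage 6, counted over stage means. At stage 2, 9 members had a mean below 1 FPKM and 10 had at least 100. At stage 6, 63 members had at least 100 FPKM, and the lowest was at 5.43 FPKM. Over the same stages the median of the 15608 genes tested went from between 25.5 and 26.2 FPKM in the stage 2 libraries to 21.7 and 22.2 in the stage 6 libraries. The members thus lay below the typical tested gene at stage 2 and above it at stage 6. The rule fixed the upward direction between these stages.

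**Figure D1:**
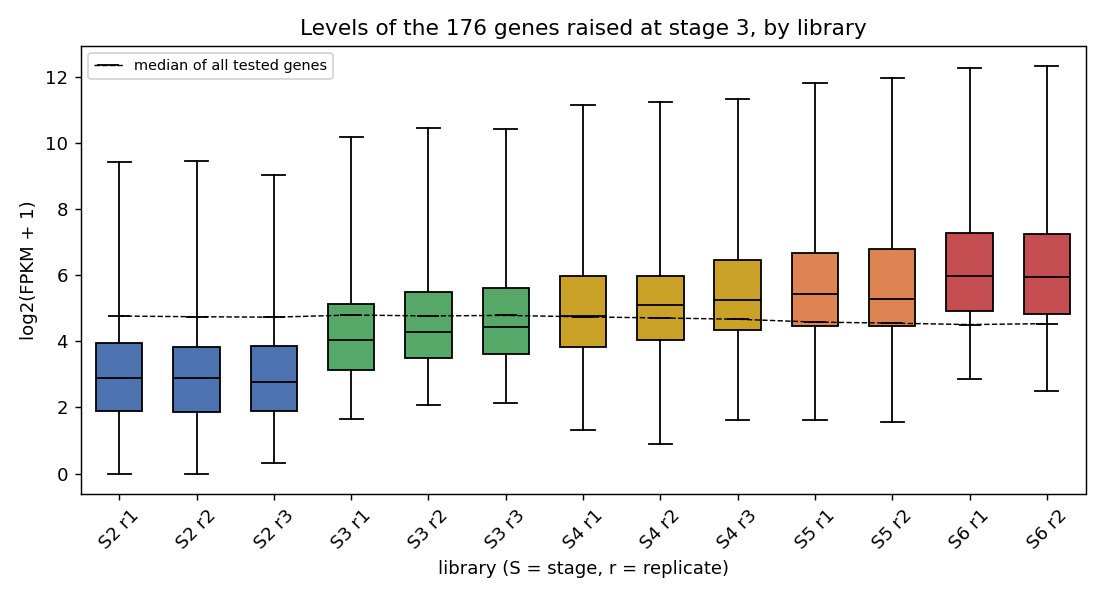
Box plots of log2(FPKM + 1) for the 176 members in each of the 13 libraries (box, quartiles; line, median; whiskers, lowest and highest member), with the median of the 15608 tested genes as a dashed line. The member median lies between 2.76 and 2.88 in the stage 2 libraries, between 4.05 and 4.42 at stage 3 and between 5.93 and 5.98 at stage 6.

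Together the members took a growing part of each library. Of the reads on genes, 0.411% ± 0.0412 (SD, n = 3) fell on members at stage 2 and 1.01% ± 0.146 (n = 3) at stage 3. Stage 4 followed with 1.51% ± 0.209 (n = 3). For the later stages the share was 2.29% ± 0.0704 (n = 2, stage 5) and 3.29% ± 0.141 (n = 2, stage 6). The 8 members with most reads carried 50.3% of all member reads. Without them the share went from 0.183% ± 0.0157 (n = 3) at stage 2 to 1.59% ± 0.0127 (n = 2) at stage 6. The rule fixed the direction of this growth for every member, and only a minimum for its size.

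The 2 members with the largest difference between stages 2 and 3 had means under 1 FPKM at stage 2, while the next in rank, Spipo1G0112500, was at 4.03 FPKM there. Spipo22G0026000 (coding length 378 bases) was at 1.48, 0.825 and 0.242 FPKM in the stage 2 libraries and at 12.8, 25.8 and 12.5 FPKM at stage 3. It then reached 60.1, 47.9 and 56.1 FPKM at stage 4, 41.9 and 30.2 at stage 5 and 76.4 and 61.9 at stage 6. Every later library was thus above every stage 3 library, and stage 5 was lower than its neighbours. Its stage 2 level rested on 9 reads over 3 libraries, for which the exact Poisson interval for counting error is 4.12 to 17.1 reads. Spipo1G0060500 (1029 bases), also on 9 reads at stage 2, was at 0, 0.101 and 0.713 FPKM there and at 4.79, 5.57 and 18.7 FPKM at stage 3. Its stage 4 libraries, at 11.6, 38.9 and 63.5 FPKM, overlapped those of stage 3, while stage 6 held 69.7 and 57.9 FPKM. Of the 176 members, 22 had fewer than 30 reads over the 3 stage 2 libraries, and their fold changes from that stage are correspondingly loose.

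The most abundant members started high. Spipo0G0142400 (399 bases) was at 685, 583 and 481 FPKM in the stage 2 libraries, at 1161, 1375 and 1278 FPKM at stage 3, at 2257, 2408 and 2543 FPKM at stage 4, at 3619 and 4024 FPKM at stage 5 and at 4508 and 5101 FPKM at stage 6. No library of any stage overlapped with one of the next. Spipo22G0039000 (1398 bases) reached a similar level by another course. It was at 542, 697 and 526 FPKM at stage 2, at 810.0, 1393 and 1379 FPKM at stage 3 and at 1072, 1148 and 1338 FPKM at stage 4, so that stages 3 and 4 overlapped. It was at 3531 and 3134 FPKM at stage 5 and 4905 and 4139.8 FPKM at stage 6.

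At the edge of the rule the choice was arbitrary, since its limit cut through a continuous range of differences. The members just inside the limit on the difference between stages 2 and 3 were Spipo4G0038900, with means of 22.5 and 46.1 FPKM at these stages, and Spipo7G0034300, with 8.87 and 18.8 FPKM. Just outside, with every other condition met, were Spipo0G0080600, at 3.55 and 8.07 FPKM, and Spipo4G0036800, at 8.31 and 17.5 FPKM. Without a minimum difference 1611 genes met the other conditions, and with a minimum of 1.5-fold 576 did, of which the members made up 30.6%.

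A library left out of the choice gave values that the rule had not used, but the libraries it was set against had been used. Those of stage 2 had been chosen as low and those of stage 3 as high. That favours the difference, so the shares below are a description and no test of it. The rule was applied again without 1 stage 3 library, and that library was then set against stage 2. Without stage 3 replicate 1 the rule chose 244 genes, and 220 of them (90.2%) were higher in the left-out library than in every stage 2 library, against 34.2% of all tested genes. The median log2 difference between the left-out library and the stage 2 mean was 0.95 over these 244 genes. Without replicate 2, 168 of 170 genes (98.8%) held, against 34.9% of tested genes, with a median difference of 1.40. Without replicate 3, 159 of 165 (96.4%) held, against 39.5%, with a median of 1.44. The same was done with stage 2 libraries. Left out in turn, they lay below every stage 3 library for 195 of 213 genes for replicate 1, 192 of 206 for replicate 2 and 168 of 170 for replicate 3, against 34.8%, 34.1% and 36.9% of tested genes.

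The libraries of a stage did not lie at 1 level for the members. Stage 3 replicate 1 was the lowest stage 3 library for 126 of 176 members (71.6%), against 35.0% of all tested genes. Its median deviation from the stage mean was -0.22 (log2) over the members and 0.00 over all tested genes. Stage 4 replicate 3 was the highest stage 4 library for 125 members (71.0%), against 31.0% of tested genes, with a median deviation of 0.24. Stage 4 replicate 1 was the lowest for 101 members (57.4%), against 28.9%. Stage 2 replicate 3 was the lowest for 99 members (56.3%), against 35.0%. The 2 libraries of stage 5 divided the members almost evenly, 83 to 93, and so did those of stage 6, 95 to 81.

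At stages 2, 3, 4 and 6 the members also varied more between libraries of a stage than all tested genes of their level, which include the members. At stage 5 the spreads were close. The rule chose the members on these same libraries, so neither the spreads nor the order of libraries above is free of it. The median SD of log2(FPKM + 1) over the members was 0.31 at stage 2, 0.28 at stage 3, 0.28 at stage 4, 0.12 at stage 5 and 0.21 at stage 6. For all tested genes at matched levels it was 0.19, 0.15, 0.14, 0.11 and 0.12. The SD exceeded the median for its level in 130, 137 and 139 of the 176 members at stages 2, 3 and 4. It did so in 93 and 123 at stages 5 and 6. By construction, such a median divides the tested genes of a level evenly.

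What the members did next, from stage 3 to stage 4, was not a condition of the rule. It is not free of the rule either: a high stage 3 was asked for, which favours a fall at the next step, while the conditions on stage 6 and on the drop from stage 4 to stage 5 can favour or remove rises. With limma on log2(FPKM + 1) over all genes, 58 of the 176 members (33.0%) rose and 3 fell at an adjusted p under 0.05, while 115 were not called. Among all 15608 tested genes, 1.91% rose and 1.1% fell. The 58 members made up 19.5% of all 298 genes that rose at this step. Without regard to the test, the stage 4 mean was above the stage 3 mean in 160 members (90.9%), against 38.5% of tested genes, and every stage 4 library lay above every stage 3 library in 94 members (53.4%), against 9.53%. The reverse held in 6 members, against 16.3% of tested genes. A closer comparison, chosen after these values were seen, is with the 3714 other tested genes that met the conditions on the stage 3 level, on stage 6 and on the step from stage 4 to 5 but failed at least 1 of those that set stage 3 against stage 2. Of these, 2.83% rose and 0.754% fell from stage 3 to stage 4, 56.5% had the higher mean at stage 4 and 17.8% had every stage 4 library above every stage 3 library. Their median change was 0.03 (log2).

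The median change of the members over this step was 0.63 (log2), a 1.55-fold difference, with quartiles of 0.38 and 1.00. The median of all tested genes was -0.06. With median ratio scaling, which sets the median change of all genes near 0, the medians were 0.69 and -0.01. Leaving out single libraries gave 40 to 62 rising members, the fewest without stage 4 replicate 3 and 45 without stage 3 replicate 1. With library weights 97 members rose, but so did 1344 of all 15608 tested genes, against 298 without weights. When only stages 3 and 4 were fitted, 37 members and 116 of all tested genes rose.

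**Figure D2:**
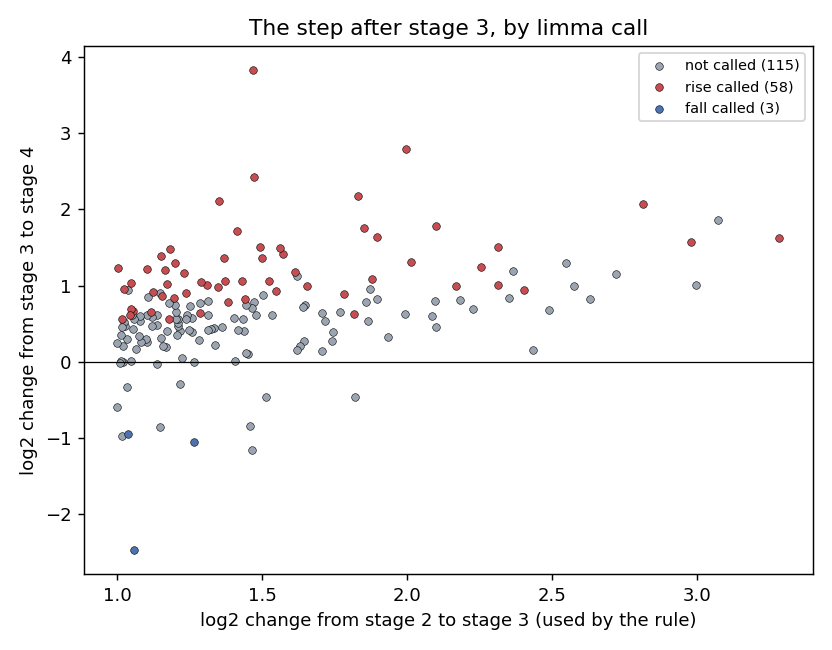
Each point is 1 of the 176 members, with its log2 difference between stages 2 and 3 (x axis, used to choose the genes) and its log2 change from stage 3 to stage 4 (y axis), both of mean FPKM plus 1. Red points mark the 58 called rises, blue points the 3 called falls and grey points the 115 members not called, and 160 members lie above 0.

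The 2 largest rises at this step were in members with mean stage 3 levels of 6.89 and 8.42 FPKM. Spipo1G0120500 (483 bases) was at 2.32, 1.72 and 1.52 FPKM at stage 2, at 8.62, 4.25 and 7.79 FPKM at stage 3 and at 61.8, 71.9 and 201 FPKM at stage 4. Replicate 3, the library highest for most members at stage 4, was also the one that stood apart here. The gene was at 102 and 105 FPKM at stage 5 and at 161 and 314 FPKM at stage 6. Its log2 change from stage 3 to stage 4 was 3.67 (SE 0.38, adjusted p = 0.000631, limma). Spipo1G0108500 (924 bases) was at 9.25, 8.90 and 7.10 FPKM at stage 3 and at 79.9, 49.3 and 64.6 FPKM at stage 4. Its libraries of these stages did not overlap, and the log2 change was 2.78 (SE 0.34, adjusted p = 0.00169, limma). It went on to 228 and 165 FPKM at stage 5 and 205 and 413 FPKM at stage 6. Both calls held in all 22 alternatives, with adjusted p of 9.52e-06 to 0.0215 and of 0.000145 to 0.0207 (limma).

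Of the 2 members with the largest difference between stages 2 and 3, one rose again at this step. Spipo22G0026000 had a log2 change of 1.70 from stage 3 to stage 4 (SE 0.28, adjusted p = 0.00755, limma). That call was lost with a pseudocount of 0.1 alone, with adjusted p = 0.0517, and the range over 22 alternatives was 0.00252 to 0.0517. Spipo1G0060500 had a log2 change of 1.81 (SE 0.53), which was not called (adjusted p = 0.0822, limma). It was called in 4 of 22 alternatives, which gave adjusted p of 0.00144 to 0.241 (limma), and among these were the fits without stage 3 replicate 3 and without stage 4 replicate 1. The most abundant member, Spipo0G0142400, rose by 0.92 (SE 0.13, adjusted p = 0.00343, limma), while Spipo22G0039000 had a change of 0.03 (SE 0.19, adjusted p = 0.954, limma).

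The 3 members that fell at this step all had stage 6 means at or above those of stage 3, as the rule required. Spipo3G0081000 (171 bases) was at 38.6, 34.04 and 29.5 FPKM at stage 2, at 49.3, 70.8 and 95.6 FPKM at stage 3 and at 16.1, 7.56 and 12.6 FPKM at stage 4. Its stage 4 libraries thus lay below those of both earlier stages. It fell by 2.48 on the log2 scale (SE 0.34, adjusted p = 0.00343, limma) and was then at 32.6 and 33.99 FPKM at stage 5 and at 134 and 47.4 FPKM at stage 6, where the 2 libraries differed widely. Spipo17G0007400 (480 bases) fell from 14.1 ± 1.21 to 6.29 ± 2.01 FPKM (SD, n = 3 each, adjusted p = 0.0256, limma), and the call was lost in 5 of 22 alternatives, with adjusted p from 0.000474 to 0.0934. Its adjusted p (limma) was 0.0900 with stage 3 replicate 2 left out and 0.0758 with stage 3 replicate 3 left out. With stage 4 replicate 1 or 2 left out it was 0.0593 or 0.0934, and 0.0578 when only stages 3 and 4 were fitted. Spipo27G0003000 (1140 bases) fell from 7.80 ± 0.840 to 3.58 ± 0.853 FPKM (SD, n = 3 each, adjusted p = 0.0111, limma), with adjusted p of 0.000579 to 0.0603 over 22 alternatives and a call lost only when stages 3 and 4 were fitted by themselves. In Spipo27G0003200, which had the second smallest change, single libraries were far apart. It was at 2.17, 3.25 and 10.2 FPKM at stage 3 and 37.1 and 15.3 FPKM at stage 6, and its change to stage 4 was not called (adjusted p = 0.225, limma).

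**Figure D3:**
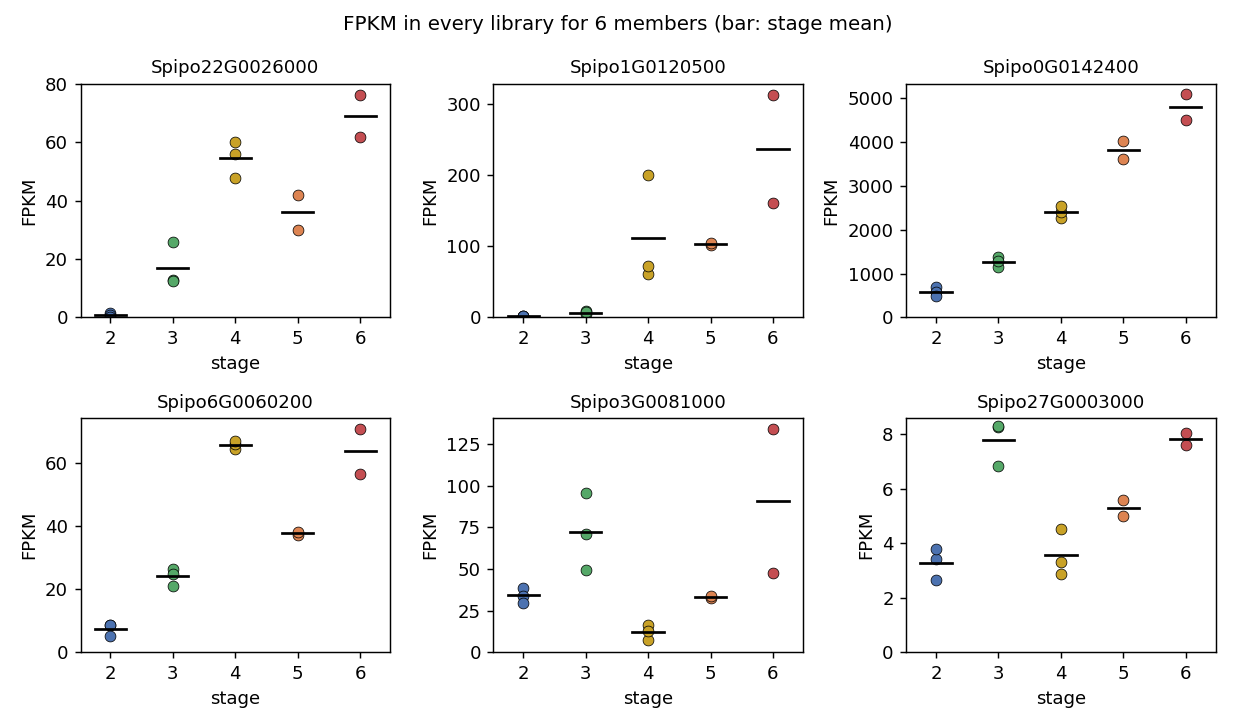
FPKM in each library (points) and the stage mean (short horizontal lines) for 6 members, on linear axes that start at 0. Spipo0G0142400 has no overlap between consecutive stages, Spipo6G0060200 is lower at stage 5 than at stages 4 and 6, and Spipo3G0081000 and Spipo27G0003000 are lowest or near their lowest at stage 4.

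From stage 4 to stage 5, a step that the rule bounded on both sides, 46 members rose and 5 fell, against 14.9% rises and 30.7% falls among all tested genes. These shares depend on the scaling: with median ratio scaling 64 members and 3369 of all 15608 tested genes rose. The 46 were 26.1% of the members, and without stage 5 replicate 1 they numbered 28. Since the bounds fixed what could be seen, nothing is read from these counts. The median change of the members was 0.35 (log2) beside -0.18 for all tested genes, or 0.54 beside 0.00 with median ratio scaling, which shifted the median of all genes by 0.18 at this step. The mean was higher at stage 5 than at stage 4 in 130 members (73.9%), against 36.8% of tested genes. With median ratio scaling it was higher in 145 members. The 36.8% is no background for that count, since it was taken without this scaling. With it, the median change of all tested genes was near 0. Every stage 5 library lay above every stage 4 library in 78 members, against 20.9% of tested genes, and below them in 18, against 42.3%.

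The members nearest the bounds show both courses. Spipo0G0083400 (354 bases) was at 26.4, 24.1 and 40.1 FPKM at stage 4 and at 111 and 111 FPKM at stage 5. Its stage 3 libraries, at 27.2, 43.4 and 54.9997 FPKM, overlapped those of stage 4. Its mean was lower at stage 4 than at stage 3, with a log2 change of -0.44 (SE 0.26) that was not called (adjusted p = 0.359, limma) except as a fall with library weights (adjusted p = 0.0157, limma; 0.0157 to 0.711 over 22 alternatives). Spipo18G0014600 (678 bases) went from 43.9, 62.6 and 46.0 FPKM at stage 4 to 192 and 177 FPKM at stage 5 and stayed at 184 and 183 FPKM at stage 6. On the other side, Spipo6G0060200 (984 bases) was at 26.5, 24.8 and 20.9 FPKM at stage 3, at 64.4, 66.0 and 66.8 FPKM at stage 4 and at 37.0 and 38.2 FPKM at stage 5, with no overlap between these stages. It rose from stage 3 to stage 4 by 1.42 (SE 0.16, adjusted p = 0.00118, limma) and was at 56.4 and 70.8 FPKM at stage 6. Spipo20G0016500 (516 bases) was at 39.9, 41.1 and 85.0 FPKM at stage 4, at 25.9 and 37.55 FPKM at stage 5 and at 58.5 and 77.4 FPKM at stage 6. The 5 called falls were Spipo6G0060200, Spipo28G0005500, Spipo22G0006800, Spipo10G0003300 and Spipo5G0000700, of which the last 3 were named after their values were seen.

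From stage 5 to stage 6, 33 members (18.8%) rose and none fell, against 5.35% and 7.2% of tested genes. The rule asked for a high stage 6, which favours a rise here. The count rested on few libraries: leaving out stage 5 replicate 1 gave 12 rising members, stage 5 replicate 2 gave 9, stage 6 replicate 1 gave 7 and stage 6 replicate 2 gave 25. The median change was 0.51 (log2) beside -0.05 for all tested genes. The mean was higher at stage 6 in 150 members (85.2%), against 44.6% of tested genes. Every stage 6 library lay above every stage 5 library in 112 members (63.6%), against 24.6% of tested genes. The reverse held in 7 members, against 33.2%.

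**Figure D4:**
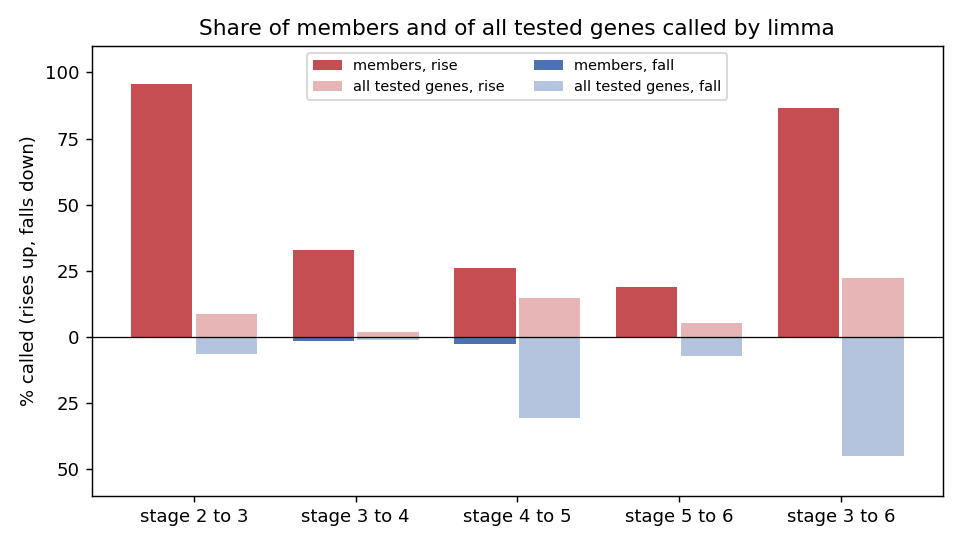
Share of the 176 members (dark bars) and of all 15608 tested genes (pale bars) called by limma as rising (upward) or falling (downward) at adjusted p under 0.05, for the 4 consecutive steps and for stage 3 against stage 6. From stage 3 to stage 4, 33.0% of members rose against 1.91% of tested genes. The differences from stage 2 to 3 and from stage 3 to 6 were used by the rule. The step from stage 4 to the next stage was also used, since the rule bounded it on both sides.

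For 152 of the 176 members (86.4%) stage 6 was called as higher than stage 3, against 22.3% of tested genes. The rule fixed this direction for all members. With median ratio scaling stage 6 was called as higher for 160 members and for 5051 of all 15608 tested genes. From stage 2 to stage 3, the contrast the rule was built on, 168 members (95.5%) were called as higher and none as lower, against 8.81% and 6.64% of tested genes, and nothing is read from those counts either. Over the 3 later steps, 67 members had a called rise at 1 step, 29 at 2 steps and 4 at all 3. Among all tested genes the shares were 17.7% at 1 step, 2.1% at 2 steps and 0.0961% at all 3. In 76 members (43.2%), against 80.1% of tested genes, no single later step was called as a rise. The rule touched each of these steps, so the counts are a description.

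Sorted by how far they went after stage 3, the members formed 3 groups of unequal size. In 19 members the stage 6 level exceeded that of stage 3 by less than 0.5 (log2). Their median FPKM was 5.75 at stage 2 and 14.1, 13.5, 16.7 and 15.4 at stages 3 to 6. Nearly the whole difference thus lay between stages 2 and 3, which the rule and the sorting together largely set. Spipo27G0003000, with 7.80 ± 0.840 FPKM (n = 3) at stage 3 and 7.83 ± 0.326 (n = 2) at stage 6, and Spipo0G0141700, with 7.73 ± 0.465 and 7.76 ± 0.810 FPKM, were closest to no difference. In this group no member rose from stage 3 to stage 4 and all 3 called falls of that step lay here, which the sorting itself favours, since the difference used for it contains that step.

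In 79 members stage 6 exceeded stage 3 by 0.5 to 1.5 (log2). Their median FPKM went from 8.22 at stage 2 through 20.6, 31.2 and 32.2 to 43.5 at stage 6, and 21 of them rose from stage 3 to stage 4. In the remaining 78 members the excess was above 1.5. Their median FPKM was 4.81 at stage 2 and 16.4, 41.5, 67.97 and 112 at stages 3 to 6, and 37 of them rose from stage 3 to stage 4. The higher stage 6 levels of this group follow from the sorting. Spipo1G0108500 went furthest, 36.7-fold in mean FPKM from stage 3 to stage 6, followed by Spipo1G0120500 with 34.5-fold.

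**Figure D5:**
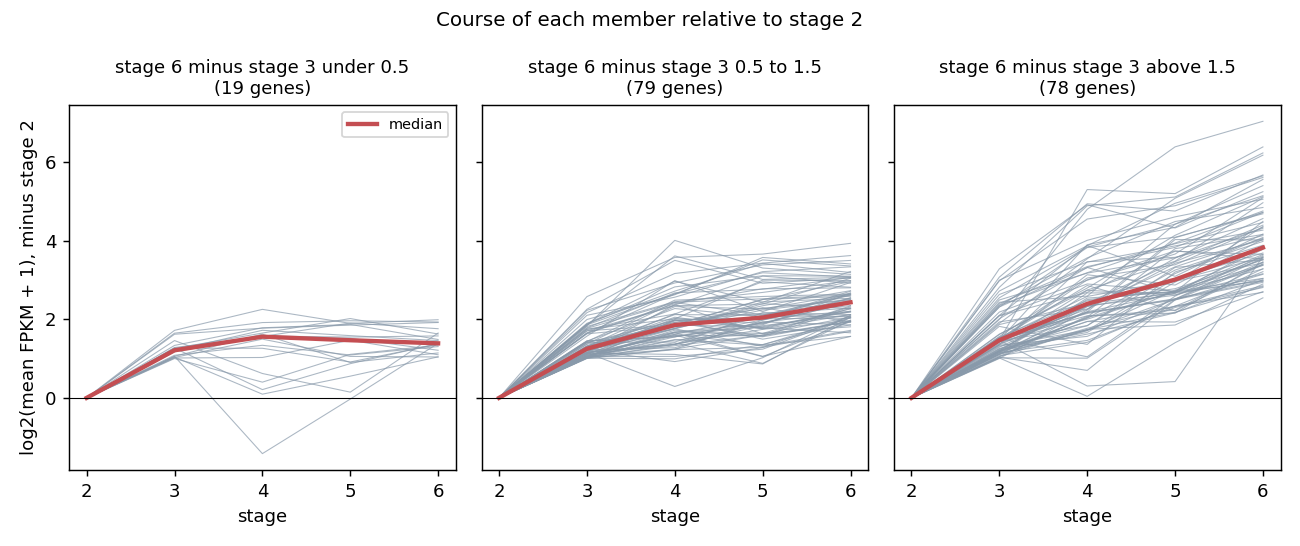
Course of each member (grey lines) and the median (red) of log2(mean FPKM + 1) relative to stage 2 over the 5 stages, in 3 panels by the difference between stages 6 and 3 (19, 79 and 78 genes). In the left panel the median stays near its stage 3 value, and in the right panel it is higher at each stage.

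The stage of the highest mean gives another view. It was stage 6 in 139 members (79.0%, against 24.6% of tested genes), stage 5 in 21 (11.9%, against 10.1%) and stage 4 in 16 (9.09%, against 12.2%). The means were higher at every step in 96 members (54.5%), against 8.68% of tested genes. That share is set in part by the rule, which fixed the first step and kept stage 6 above stage 3. Of the other 80 members, 72 were lower at only 1 later step and 8 at 2. The step with most lower means was the one into stage 5, which the rule bounded, with 46 members lower there than at stage 4. At stage 4, 16 were lower than at stage 3, and at stage 6, 26 were lower than at stage 5. Among all tested genes the mean was higher in 38.5% at the step into stage 4. It was higher in 36.8% at the step into stage 5 and in 44.6% at the step into stage 6. On FPKM scaled to library totals, the step into stage 5 thus had the fewest higher means among all tested genes as well. That ranking depends on the scaling. With median ratio scaling the median changes of all tested genes were -0.006, 0.004 and 0.02 (log2) into stages 4, 5 and 6. By this median the step into stage 5 was not the lowest.

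The 16 members with the highest mean at stage 4 had a median of 8.47 FPKM at stage 2, 21.1 at stage 3, 38.6 at stage 4, 31.5 at stage 5 and 34.4 at stage 6. Of these, 7 rose from stage 3 to stage 4. The 21 members with the highest mean at stage 5 had medians of 3.97, 10.2, 21.8, 31.1 and 24.3 FPKM over the 5 stages, and 2 rose from stage 3 to stage 4. The 15 genes that were raised at stage 3 and then lower at stage 6, which the rule left out, had medians of 11.8, 38.9, 34.3, 17.4 and 21.7 FPKM. They were thus higher than the members at stages 2 and 3 and lower than them at stage 6. The contrast at stage 6 is set in part by the choice, since a stage 6 below stage 3 is what left these genes out.

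Coding length, read from the FPKM values, was not a condition of the rule, although FPKM is itself scaled to gene length. The 176 members had a median of 852 bases with quartiles of 554 and 1302, from 132 to 4872 bases. All tested genes had a median of 1017 with quartiles of 603 and 1563. Models under 600 bases made up 29.0% of the members and 24.7% of tested genes. The members were therefore somewhat shorter in the middle of the range, with broad overlap.

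Members with nearly consecutive ID numbers occurred together. With a distance of at most 200 in the number that ends an ID, 29 members (16.5%) had another member beside them, in 14 runs of 2 or 3, while 3.43% of all tested genes had a member at that distance. Whether the numbers follow the order of genes on a chromosome is not given in the sources used here. Of the 507 tested genes that lay at this distance and were no members, 49 (9.66%) were called as higher at stage 3 than at stage 2, near the 8.81% of all tested genes.

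The longest run, singled out after its values were seen, held 3 members of similar coding length. Spipo10G0031400 (2304 bases) was at means of 3.33, 9.57, 20.9, 25.4 and 43.7 FPKM over stages 2 to 6. Spipo10G0031600 (2319 bases) was at 1.20, 8.87, 18.7, 22.6 and 26.0 FPKM, and Spipo10G0031800 (2334 bases) at 14.2, 31.1, 47.5, 51.6 and 68.4 FPKM. All 3 were higher at each stage, at levels that differed several-fold at stage 2. Their changes from stage 3 to stage 4 had adjusted p of 0.00326, 0.0111 and 0.0888 (limma). Over 22 alternatives the ranges were 7.91e-05 to 0.0373, 0.00134 to 0.0524 and 0.0386 to 0.255 (limma). The call of the second was lost without stage 4 replicate 3, and the third was called in 1 alternative.

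A pair of members with consecutive numbers had equal coding lengths and unequal courses. Spipo28G0005500 and Spipo28G0005600 (both 2715 bases) were at 76.9 ± 21.8 and 9.01 ± 1.90 FPKM at stage 2 (SD, n = 3 each). The first was at 395, 375 and 437 FPKM at stage 4, at 234 and 246 FPKM at stage 5 and at 278 and 366 FPKM at stage 6. The second was at 44.7, 52.2 and 66.4 FPKM at stage 4, at 65.6 and 69.6 FPKM at stage 5 and at 108 and 118 FPKM at stage 6, so that it did not share the lower stage 5 level. Genes of such pairs may be near-identical copies whose reads a counter splits or drops, and the sources used here do not show whether they are, so their single levels are uncertain.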

How the data were processed

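RNA sequencing libraries of frond tissue at 5 stages (13 libraries) were used as 1 table of FPKM values deposited by the authors, 1 column per library. The submitters' processing notes name HISAT2 2.2.1 and HTSeq 0.11.3, and also Trimmomatic 0.39, Picard 2.25.5 and CASAVA 1.8.2, without giving roles. For the genome build, the annotation and the strand setting, nothing is given in the sources used here, so a gene and an overlapping antisense gene cannot be told apart. Because FPKM is scaled to a total, higher values of some genes lower those of others.

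Whole reads, library totals and coding lengths were recovered from the steps of the FPKM values, within 0.001 reads for 100% of 17445 genes with any value, and served for depth, counting intervals (exact Poisson, 95%, counting error only) and 1 alternative test. The steps were tested on simulated data.

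The 15608 genes that reached 1 FPKM in 2 or more libraries were tested with limma 3.58.1 (R 4.3.3) on log2(FPKM + 1) in 1 fit of all 13 libraries with a mean per stage, 8 residual degrees of freedom and a mean-variance trend. Benjamini-Hochberg adjustment ran over all genes tested. A change on this scale understates that of low genes. The changes given with an SE come from this fit, while differences used by the rule, medians and groups are of log2(mean FPKM + 1). Counts of calls are described beside the share of all tested genes.

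The members and the lists were chosen with earlier results of these data known. Genes named by ID were taken by a rule: members with the largest difference from stage 2 to 3, the highest mean level, the largest and smallest steps from 3 to 4, 4 to 5 and 3 to 6, and those on either side of the limit. Of each, the first 2 are given. Runs of IDs and called falls outside that rule were named after their values were seen. Because no ID is paired with a product, 17 lists by product name and the cell type markers were not applied. Alternatives were another pseudocount, other filters, scalings and library weights, fits of 2 stages, a replicate block, voom on recovered reads and leaving out each library.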

Additional observations from a re-analysis of the deposited data

How the results depend on the processing

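By the rule, 165 to 244 genes were members when 1 library was left out, 576 with a 1.5-fold and 53 with a 3-fold minimum difference, by construction, and within 1.5 times of 176 in the other settings. Members called as higher numbered, with 1 library left out, 147 to 172 from stage 2 to 3, 40 to 62 from stage 3 to 4, 28 to 57 from stage 4 to 5, 7 to 41 from stage 5 to 6 and 136 to 155 from stage 3 to 6, against 168, 58, 46, 33 and 152 with all. A left-out library of stage 5 or 6 leaves a lone one, assumed to vary like the others. From stage 3 to 4, library weights gave 97, beside 1344 of all tested genes (the cause was not tested). A fit of these stages alone gave 37, beside 116 of all tested genes, with fewer samples behind the spread. Fitting a replicate block changed the counts with all libraries to 171, 71, 66, 45 and 156, each under 1.5 times apart from the unblocked count. No label ties the replicate numbers, and 7 of 23 same-numbered pairs had correlated deviations above 0.1 (r from -0.243 to 0.374), so they were not taken as pairs. For the 28 members taken by the naming rule, 6 of the 22 alternatives (filters, library weights, fits of 2 stages, replicate block, voom) were added after seeing the data. Of 616 alternative changes from stage 3 to 4, 579 kept their side of the threshold, 22 lost a call, 15 gained one and none reversed. From stage 2 to 3, 20 of 616 moved by more than the spread between replicates, 10 with a pseudocount of 0.1 and 10 with voom, and none reversed. Levels near 1 FPKM are limited by depth.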
